A study of Homo sapiens with 6 samples.

Results

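The genes of cholesterol synthesis and the targets of the sterol regulatory element binding proteins (SREBPs) were examined in U2OS cells after depletion of LSD1, the histone demethylase encoded by KDM1A. The members are a list of 35 genes chosen by their place in the pathway, with earlier results of these data known. The list also holds 3 targets of the liver X receptors. All 35 were among the 15585 genes of the deposited count table. A filter on low counts kept 11844 genes for testing, 34 of them members, and ABCA1 was the member that did not pass. RNA-seq was performed on total RNA from U2OS, an established human osteosarcoma line, grown in DMEM with fetal bovine serum and transfected by RNAiMAX for 48 h with control siRNA (siCTR, 3 libraries) or LSD1 siRNA (siLSD1, 3 libraries). Which of the LSD1 siRNAs was used for these libraries is not given in the sources used here. The labels do not say whether the replicates came from separate cultures, so p-values measure only the spread between these libraries, which may be technical.

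The depth was 12855558, 13026699 and 13444230 counted reads in siCTR replicates 1, 2 and 3, and 13292468, 12513511 and 13561344 in siLSD1 replicates 1, 2 and 3. KDM1A, at chr1:23019443-23083689 on the plus strand of GRCh38, was counted with 6140, 6493 and 6573 reads under control siRNA and 1110, 1198 and 1246 reads under LSD1 siRNA. The targeted transcript was thus lower in every siLSD1 library than in every siCTR library, as the labels state. Its mean was 489 ± 16.4 CPM (scaled read counts relative to library size; SD, n = 3) in siCTR and 90.4 ± 6.92 in siLSD1, which leaves 18.5% of the control level. On the log2 scale siLSD1 differed from siCTR by -2.44 (standard error 0.11), and the Benjamini-Hochberg adjusted p from edgeR was 2.27e-07.

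The labelled cell line was compared with marker genes. Of 8 genes of the osteoblast lineage, 6 had a row in the table and 2 of these had a mean above 1 FPKM (read counts divided by gene length and library size). ALPL, the alkaline phosphatase of bone, was the most abundant, with a mean of 124 FPKM in siCTR and 133 in siLSD1. COL1A1, a chain of type I collagen, was counted with 170, 136 and 122 reads (siCTR) and 200, 144 and 139 reads (siLSD1), and BGLAP with 12, 4 and 4 reads (siCTR) and 7, 1 and 1 reads (siLSD1). RUNX2, SP7 and SPARC had at most 4 reads in any library. The summed level of the list was 134, 119 and 125 FPKM in siCTR and 152, 136 and 119 in siLSD1. Among 4 epithelial markers, KRT8 was the most abundant, the summed level was 421, 492 and 443 FPKM in siCTR and 453, 427 and 354 in siLSD1, and KRT5 had at most 1 read in any library. CDH1, the epithelial cadherin, was counted with 95, 80 and 66 reads (siCTR) and 154, 117 and 143 reads (siLSD1). Its log2 fold change was 0.77 (adjusted p 0.0699, edgeR), and its part in the pathway results was not tested. KRT8 and EPCAM had values below 0 instead. KRT8 lay at -0.14 (adjusted p 0.626, edgeR) and EPCAM at -0.06 (adjusted p 0.940, edgeR). EPCAM was counted with 29, 41 and 31 reads (siCTR) and 28, 35 and 34 reads (siLSD1). The haematopoietic marker PTPRC and the hepatocyte marker APOA1 had at most 1 read in any library. COL1A2, IBSP, CD3E, ALB and TTR were not analysed here.

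Cholesterol is built from acetyl-CoA through mevalonate, isoprenoid diphosphates, squalene and lanosterol, and the same acetyl-CoA feeds fatty acid synthesis. When sterols are scarce in the endoplasmic reticulum, SCAP escorts the SREBPs to the Golgi, where proteases release the part that enters the nucleus and binds sterol response elements, often next to sites for the factor NF-Y, while INSIG proteins hold SCAP back when sterols are plentiful. The liver X receptors (LXRs) respond to oxysterols and raise genes that export cholesterol.

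Promoter windows from 250 bases before to 50 bases after the transcription start were taken from RefSeq (GRCh38.p14) and matched 30 of the 35 genes, with 42 windows. ACAT2, FDFT1, SQLE, FASN and ABCG1 were not matched. On both strands, the sterol response element TCACNCCAC was found in 1 of the 42 windows, against 1.13% of all 35116 windows. The E-box CACGTG was found in 6 of the 42, against 7.26% of all windows. The CCAAT box, CCAAT, the letters of the NF-Y site, was found in 25 of the 42, against 34.6% of all windows. A match describes the letters in the window and not binding, and these words do not overlap each other in the sequences shown. A window without a match lacks that exact word, and variant or more distant sites were not searched. ELOVL6 is shown because it was the member with an unadjusted p under 0.05. SREBF2, which had the match to the sterol response element, and MVK, with 5 CCAAT boxes, as many as NSDHL, were chosen after their values were seen. The windows lie at chr4:110198566-110198865 on the minus strand for ELOVL6, at chr22:41832855-41833154 on the plus strand for SREBF2, and at chr12:109573544-109573843 on the plus strand for MVK. Each runs 5′ to 3′ along the gene's own strand, and capitals mark the matches, with ATTGG for a CCAAT box on the opposite strand.
ELOVL6: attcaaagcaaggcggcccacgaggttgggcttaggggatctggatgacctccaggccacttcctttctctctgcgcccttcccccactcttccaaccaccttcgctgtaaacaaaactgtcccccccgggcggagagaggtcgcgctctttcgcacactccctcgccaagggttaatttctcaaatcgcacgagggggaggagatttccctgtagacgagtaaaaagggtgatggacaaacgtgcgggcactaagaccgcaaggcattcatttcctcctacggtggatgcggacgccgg
SREBF2: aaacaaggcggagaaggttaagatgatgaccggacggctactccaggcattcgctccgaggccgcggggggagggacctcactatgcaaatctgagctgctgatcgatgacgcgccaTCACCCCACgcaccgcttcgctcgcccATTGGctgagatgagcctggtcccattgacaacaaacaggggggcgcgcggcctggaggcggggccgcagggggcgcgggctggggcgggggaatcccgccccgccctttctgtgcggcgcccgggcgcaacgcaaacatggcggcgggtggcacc
MVK: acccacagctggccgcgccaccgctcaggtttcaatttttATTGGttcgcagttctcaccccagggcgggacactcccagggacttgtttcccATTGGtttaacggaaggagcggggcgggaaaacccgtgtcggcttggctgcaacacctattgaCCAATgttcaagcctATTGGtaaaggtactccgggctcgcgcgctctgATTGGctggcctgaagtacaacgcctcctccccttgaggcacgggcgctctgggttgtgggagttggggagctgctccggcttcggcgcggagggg
The ELOVL6 window held none of the 3 words, which says only that these letters are not in this window. In SREBF2 the sterol response element began 133 bases before the start, and a CCAAT box on the opposite strand began 106 bases before it. In MVK the CCAAT boxes began 210, 157, 94, 79 and 46 bases before the start, and the box at 94 was on the gene's own strand.

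The pathway was expressed over a wide range of levels per length, in an order led by enzymes of lipid synthesis. SCD, which places the double bond in stearate, had 313, 245 and 306 FPKM in siCTR and 303, 294 and 303 in siLSD1. The siCTR replicate 2 value was below the other 5, which lay close together, and the groups overlapped. FDPS, which makes farnesyl diphosphate, had 257, 274 and 238 FPKM in siCTR and 284, 246 and 243 in siLSD1, also with overlap. HMGCS1, which makes HMG-CoA, had 195, 205 and 217 FPKM in siCTR and 181, 208 and 219 in siLSD1. Here the lowest and the highest value were both in siLSD1. FASN, the fatty acid synthase, had 230, 142 and 199 FPKM in siCTR and 192, 182 and 142 in siLSD1. One library of each group, siCTR replicate 2 and siLSD1 replicate 3, gave the low values of FASN. ACLY, which makes cytosolic acetyl-CoA from citrate, had 181, 142 and 175 FPKM in siCTR and 177, 169 and 167 in siLSD1. The means of FASN and ACLY over 6 libraries were 181 and 168 FPKM, and the ranges of their libraries overlapped.

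**Figure D1:**
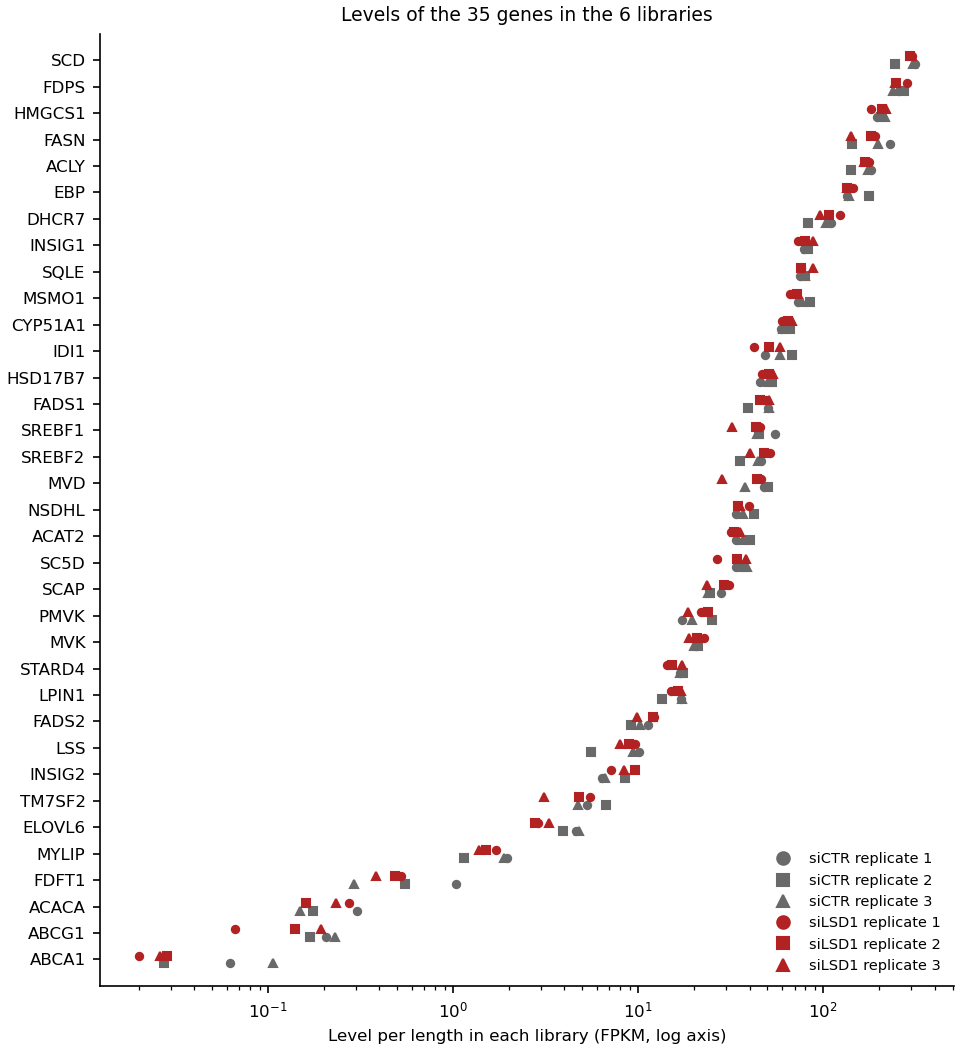
Level per length (FPKM, log axis) of the 35 genes in each of the 6 libraries, siCTR in grey and siLSD1 in red, with the marker shape giving the replicate number. SCD is highest at a mean of 294 FPKM and ABCA1 lowest at 0.045 FPKM, and ELOVL6 and MSMO1 are the genes whose red points all lie to the left of their grey ones in FPKM.

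The lower end of the range held the LXR targets and, of the synthesis enzymes, FDFT1 and ACACA. FDFT1, the squalene synthase, was counted with 61, 33 and 18 reads (siCTR) and 32, 28 and 24 reads (siLSD1). ACACA, the acetyl-CoA carboxylase of lipid synthesis, was counted with 43, 25 and 22 reads (siCTR) and 40, 22 and 35 reads (siLSD1). These counts were far under those of the enzymes before and after them in the pathway, and in the second set of counts that was deposited for the same libraries FDFT1 again had 28 to 83 reads and ACACA 22 to 44. The cause was not tested. ABCA1, a cholesterol exporter, was counted with 9, 4 and 16 reads (siCTR) and 3, 4 and 4 reads (siLSD1), too few to pass the filter. Without the filter it was lower at an unadjusted p under 0.05 from edgeR, where 926 of 15585 genes were. ABCG1, a second exporter, was counted with 12, 10 and 14 reads (siCTR) and 4, 8 and 12 reads (siLSD1), and its groups overlapped.

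The libraries differed from each other in ways that follow gene length and GC content, and these differences reached the pathway genes. In siCTR replicate 2, the 17 members longer than the members' median of 3436 bases lay at a median of -0.25 on the log2 scale from the mean of the other siCTR libraries, and the 17 shorter ones at 0.18. Over all tested genes the same split gave -0.11 for the 6537 longer genes and 0.17 for the 5307 shorter ones. In siLSD1 replicate 3, the 17 members with a GC content above 49.1% lay at -0.25 from the other siLSD1 libraries and the 17 others at 0.14, and over all tested genes with a known GC content the values were -0.22 for 5311 genes and 0.14 for 6179. In siLSD1 replicate 1 the GC split went the other way, with 0.18 and -0.17 for the members. Of the 34 tested members, 9 had their lowest CPM in siCTR replicate 2 (7 of them among the longer genes), 8 in siLSD1 replicate 1 (7 of them among those with the lower GC content), 7 in siCTR replicate 1 (all 7 among the shorter genes), 6 in siLSD1 replicate 3 (all 6 among those with the higher GC content), 3 in siCTR replicate 3 and 1 in siLSD1 replicate 2. The part of these library differences in the results was not tested, other than through the correction for GC content and length given with the alternatives.

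**Figure D2:**
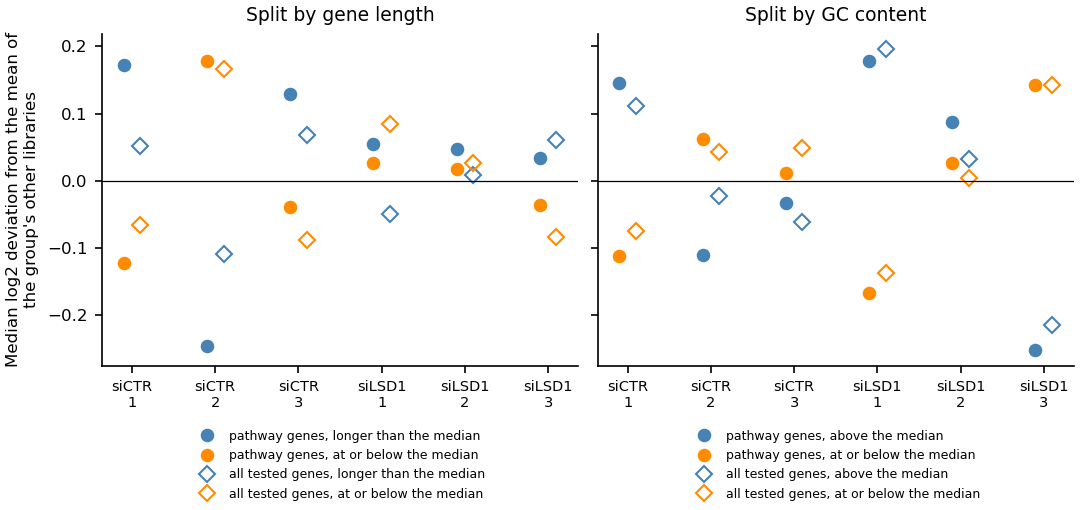
Median log2 deviation of each library from the mean of the other libraries of its group, for the 34 tested pathway genes (filled circles) and all tested genes, on the right those with a known GC content (open diamonds), split at the pathway genes' median length (left) or GC content (right). The longer pathway genes lie at -0.25 in siCTR replicate 2, and those of higher GC content at -0.25 in siLSD1 replicate 3.

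By edgeR, none of the 34 tested members was higher in siLSD1 at an unadjusted p under 0.05, where 7.48% of all 11844 tested genes were, and 1 was lower, where 6.55% were. With edgeR, 0 members had an adjusted p under 0.05, against 171 (1.44%) of all tested genes, and the count was 0 with limma-voom and 1 with DESeq2. The members split evenly by sign, 17 with a value above 0 and 17 below, and their median log2 fold change was -0.0039, against -0.014 over all tested genes. With 1 library left out that median lay between -0.044, without siCTR replicate 2, and -0.0015, without siLSD1 replicate 2. By CPM, in 0 of 34 members did every siLSD1 library lie above every siCTR library, where 11.4% of all tested genes did, and in 1 of 34 every siLSD1 library lay below, where 9.97% did. No test of the list against other genes was made, and nothing is read from these counts about the list as a whole. With the correction for GC content and length, 2 members were higher (SCAP and INSIG2) and 2 lower (ELOVL6 and SREBF1) at an unadjusted p under 0.05, where 1439 and 1365 of 11490 genes were, and 1 member (ELOVL6) was among 855 genes with an adjusted p under 0.05 from edgeR. The count of 171 genes became 88, 58, 71 and 60 without siCTR replicate 2, siCTR replicate 3, siLSD1 replicate 1 and siLSD1 replicate 2. The count of lower members became 2 without siCTR replicate 1, where IDI1 joined and 788 of 11975 genes were lower, without siCTR replicate 2, where FASN joined and 683 of 12007 were, and without siCTR replicate 3, where FDFT1 joined and 726 of 11996 were. The count of higher members became 1, INSIG2, without siCTR replicate 2, where 840 of 12007 genes were higher.

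The 95% confidence interval of the log2 fold change lay wholly between -0.5 and 0.5 for 24 of the 34 tested members (70.6%), and for 51.8% of all tested genes. The members had a higher level, with a median of 39.8 FPKM against 9.20 for all tested genes. Among the 29 members with at least 100 reads in every library, the interval lay in that range for the same number, 24. In the 5 members with fewer reads, FDFT1, ACACA, ABCG1, MYLIP and TM7SF2, the interval reached beyond that range, as it did in SREBF1, INSIG2, MVD, IDI1 and ELOVL6, which had more reads.

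**Figure D3:**
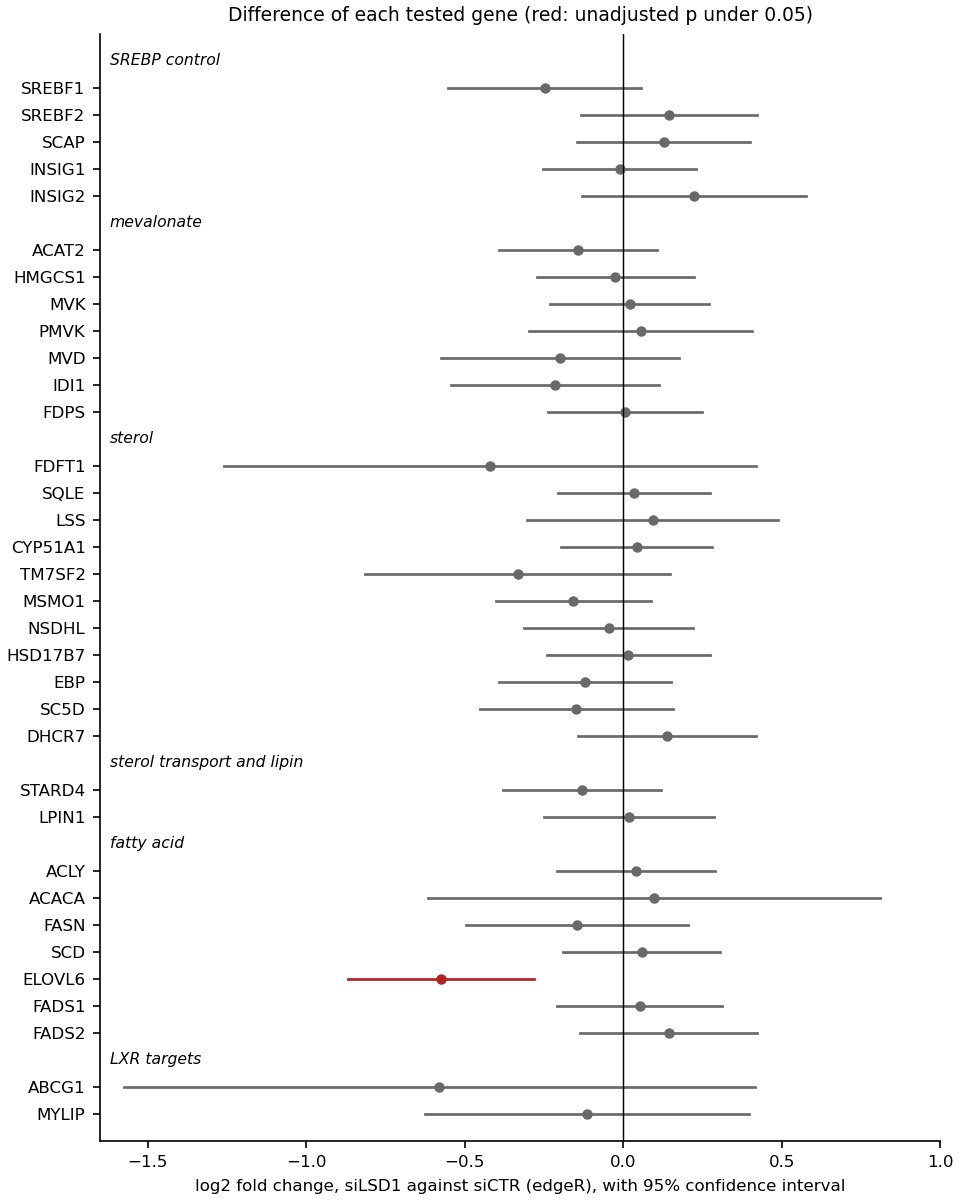
Log2 fold change of siLSD1 against siCTR for the 34 tested genes, by role, with the 95% confidence interval from edgeR as a line and red for an unadjusted p under 0.05. ELOVL6 at -0.58 is the red gene, and the interval of each of the others crosses 0.

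Of the 5 genes that control SREBP activity, 0 passed at an unadjusted p under 0.05, where 886 and 776 of 11844 genes were higher and lower. With the correction for GC content and length 3 passed, SREBF1 lower at a log2 fold change of -0.16, and SCAP and INSIG2 higher at 0.18 and 0.29, where 1439 and 1365 of 11490 genes were higher and lower. None of the 3 had an adjusted p under 0.05 from edgeR with that correction. SREBF1 encodes the factor that acts mainly on fatty acid genes, and had 245, 204 and 198 CPM in siCTR and 203, 197 and 146 in siLSD1. SREBF2 encodes the factor that acts mainly on sterol genes, and had 245, 194 and 238 CPM in siCTR and 273, 258 and 216 in siLSD1. For both genes the groups overlapped, and for SREBF1 the lowest value was that of siLSD1 replicate 3. The log2 fold changes were -0.25 (95% confidence interval -0.55 to 0.06) for SREBF1 and 0.14 (-0.13 to 0.42) for SREBF2. SCAP, INSIG1 and INSIG2 lay at 0.13, -0.01 and 0.22. INSIG1, itself an SREBP target whose transcript follows sterol supply, had an interval from -0.25 to 0.23. Sterol supply and SREBP activity were not measured in these libraries.

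Of the 7 genes from acetyl-CoA to farnesyl diphosphate, 0 passed at an unadjusted p under 0.05 from edgeR. Of all tested genes, 7.48% were higher and 6.55% lower at that threshold. The log2 fold changes of the 7 genes ran from -0.22 for IDI1, the isopentenyl diphosphate isomerase, to 0.05 for PMVK, a mevalonate pathway kinase. Between them lay ACAT2, the cytosolic thiolase, at -0.14, MVD, the decarboxylase, at -0.20, HMGCS1 at -0.03, MVK, the mevalonate kinase, at 0.02 and FDPS at 0.0041. Single libraries moved these values, that of MVD to -0.0099 without siLSD1 replicate 3 and that of IDI1 to -0.075 without siCTR replicate 2, and with the correction for GC content and length MVD lay at -0.015. The summed level of the 7 genes was 620, 684 and 628 FPKM in siCTR and 629, 627 and 622 in siLSD1, with siCTR replicate 2 the highest of the 6 libraries. Of the 11 genes from squalene synthesis to cholesterol, 0 passed as well, against the same 7.48% higher and 6.55% lower of all tested genes. Nothing is read from these counts about either list. Apart from FDFT1 at -0.42 and TM7SF2, a sterol reductase, at -0.33, both with few reads, the values of the 11 genes ran from -0.16 for MSMO1 to 0.14 for DHCR7. SQLE, the squalene epoxidase, lay at 0.03, LSS, the lanosterol synthase, at 0.09, CYP51A1, the lanosterol demethylase, at 0.04, and HSD17B7 and NSDHL, which remove the methyl groups at carbon 4 with MSMO1, at 0.02 and -0.05. EBP and SC5D, which act late in the route, lay at -0.12 and -0.15, EBP at 0.025 without siCTR replicate 2 and SC5D at -0.0089 without siLSD1 replicate 1. The 11 genes summed to 582, 635 and 600 FPKM in siCTR and 598, 589 and 599 in siLSD1. STARD4, a sterol carrier, and LPIN1, a phosphatidate phosphatase, lay at -0.13 and 0.02.

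Reads of some of these genes cannot be assigned with certainty, since the authors' counting and its use of strand are not given in the sources used here. In GENCODE, 74.1% of the exon bases of CYP51A1, 37.7% of those of HMGCS1, 36.4% of those of EBP, 22.2% of those of ACAT2 and 18.6% of those of FDPS are shared with another gene model. FDPS has 8 annotated pseudogene copies, CYP51A1 and IDI1 have 3 each, HSD17B7 has 2 and SCD has 1. For ELOVL6 the shared part is 3.30%.

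Of the 7 genes of fatty acid synthesis, 1 was lower in siLSD1 and 0 were higher at an unadjusted p under 0.05 from edgeR. Of all tested genes, 6.55% were lower and 7.48% higher, and nothing is read from this count about the list. ELOVL6, at chr4:110045846-110199199 on the minus strand, encodes the elongase that extends palmitate to stearate, and it was counted with 392, 340 and 428 reads (siCTR) and 254, 230 and 296 reads (siLSD1). After scaling it had 30.2, 26.5 and 31.8 CPM in siCTR and 18.9, 18.5 and 21.9 CPM in siLSD1. Every siLSD1 library lay below every siCTR library, with means of 29.5 ± 2.74 and 19.8 ± 1.89 CPM (SD, n = 3). This is a log2 fold change of -0.58 (standard error 0.14) and a 95% confidence interval from -0.87 to -0.28, which is 67.1% of the control level. The adjusted p was 0.0607 from edgeR with Benjamini-Hochberg adjustment, so ELOVL6 did not pass the correction over all genes. It passed at 0.0189 with DESeq2. From edgeR it passed at 0.0328 without the filter, at 0.0022 with the correction for GC content and length, and at 0.0017 with a block on the replicate number. The highest adjusted p over the alternatives was 0.326, from edgeR without siLSD1 replicate 2. With 1 library left out it was never under 0.05 with edgeR, and the log2 fold change stayed between -0.66 and -0.52. In bulk RNA, fewer cells with a transcript and less of it per cell cannot be told apart. The other 6 genes did not pass, with log2 fold changes from -0.15 for FASN to 0.14 for FADS2, a fatty acid desaturase. ACLY, FADS1, a further desaturase, SCD and ACACA lay at 0.04, 0.05, 0.06 and 0.10. The LXR targets ABCG1 and MYLIP, a ubiquitin ligase, lay at -0.58 and -0.11, with 4 to 14 and 45 to 77 reads a library.

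The 35 genes together took 0.901%, 0.774% and 0.872% of all counted reads in siCTR and 0.855%, 0.840% and 0.811% in siLSD1. The siLSD1 values lay within the range of the siCTR values, whose lowest was siCTR replicate 2. Within a group, the CPM of a member had a median coefficient of variation of 12.1% in siCTR and 10.2% in siLSD1, against 11.8% and 10.7% over all tested genes.

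Other genes of the pathway were taken from 6 lists, with 53 genes tested. RXRB and RABGGTA were not analysed here. Of the 53, 2 were higher and 4 were lower at an unadjusted p under 0.05, where 7.48% and 6.55% of all tested genes were, and 1 had an adjusted p under 0.05 with edgeR, where 1.44% did. Nothing is read from these counts about the lists, and the genes are given as values. Their median log2 fold change was 0.02, against -0.014 over all tested genes. The 2 higher genes were the erlins, a pair of related proteins of the endoplasmic reticulum that form a complex and take part in the degradation of other membrane proteins there. ERLIN1 had 58.5, 63.4 and 58.3 CPM in siCTR and 83.9, 86.3 and 95.5 in siLSD1. ERLIN2 had 51.4, 48.0 and 48.9 CPM in siCTR and 69.6, 68.5 and 68.1 in siLSD1. For both genes every siLSD1 library lay above every siCTR library, and the libraries of a group lay close together. ERLIN1 rose by 0.56 on the log2 scale with a standard error of 0.11, and its adjusted p was 0.0278 from edgeR. Its adjusted p from edgeR was 0.0415 without siCTR replicate 2 and over 0.05 without any other library, from 0.0596 without siLSD1 replicate 1 to 0.142 without siCTR replicate 3, with 0.0865, 0.136 and 0.0716 without siCTR replicate 1, siLSD1 replicate 2 and siLSD1 replicate 3. For ERLIN2 the log2 fold change was 0.48 (standard error 0.11), and the adjusted p was 0.0538 from edgeR. That adjusted p was up to 0.266 from edgeR, without siLSD1 replicate 2, and it was 0.0104 with DESeq2 and 0.0190 from edgeR with the correction for GC content and length.

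The 4 lower genes came from 4 lists. PGRMC1, a haem-binding membrane protein, had 109, 146 and 127 CPM in siCTR and 97.2, 99.7 and 110 in siLSD1. PDSS1, a subunit of the enzyme that makes the isoprenoid tail of coenzyme Q, had 27.4, 36.4 and 30.9 CPM in siCTR and 22.7, 24.0 and 26.4 in siLSD1. For PGRMC1 the groups overlapped, and for PDSS1 they did not, with siCTR replicate 2 highest in both. GRAMD1A, a sterol transfer protein, had 81.7, 70.7 and 73.2 CPM in siCTR and 61.4, 66.5 and 54.6 in siLSD1. ACSL1, which activates long-chain fatty acids, had 27.8, 23.5 and 26.8 CPM in siCTR and 19.0, 21.9 and 21.9 in siLSD1. For both of these every siLSD1 library lay below every siCTR library. The log2 fold changes were -0.32, -0.37, -0.31 and -0.31 in this order, and the adjusted p-values of 0.272, 0.244, 0.270 and 0.305 from edgeR did not pass. With the correction for GC content and length, the adjusted p from edgeR was 0.0466 for PGRMC1 and 0.0363 for ACSL1, which passed, and 0.0602 for PDSS1 and 0.225 for GRAMD1A, which did not. Without siLSD1 replicate 2 it was 0.655 for PGRMC1, 0.610 for PDSS1, 0.511 for GRAMD1A and 0.622 for ACSL1, the highest value over the alternatives for each. The unadjusted p of PGRMC1 was above 0.05 without siCTR replicate 2 or 3 or siLSD1 replicate 1 or 2, with log2 fold changes of -0.21, -0.32, -0.28 and -0.29. That of PDSS1 was so without siCTR replicate 2 or siLSD1 replicate 1 or 2, at -0.26, -0.32 and -0.35. That of GRAMD1A was so without siCTR replicate 1 or siLSD1 replicate 3, at -0.24 and -0.23, and with the GC content and length correction, at -0.19. That of ACSL1 was so without siCTR replicate 1 or 3 or siLSD1 replicate 1 or 2, at -0.27, -0.29, -0.25 and -0.34. In PDSS1, 10.8% of exon bases are shared with ABI1, and it has 2 pseudogene copies.

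By list, against the same 7.48% higher and 6.55% lower over all tested genes, 2 of 8 genes of SREBP processing and sterol-regulated degradation were higher and 0 lower, and of 4 other sterol enzymes 0 were higher and 1 was lower. Of 11 genes of the isoprenoid branches 1 was lower, of 12 genes of cholesterol trafficking and esterification 1 was lower, of 12 other fatty acid enzymes 1 was lower, and of 6 LXR receptors and other LXR targets 0 passed in either direction.

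**Figure D4:**
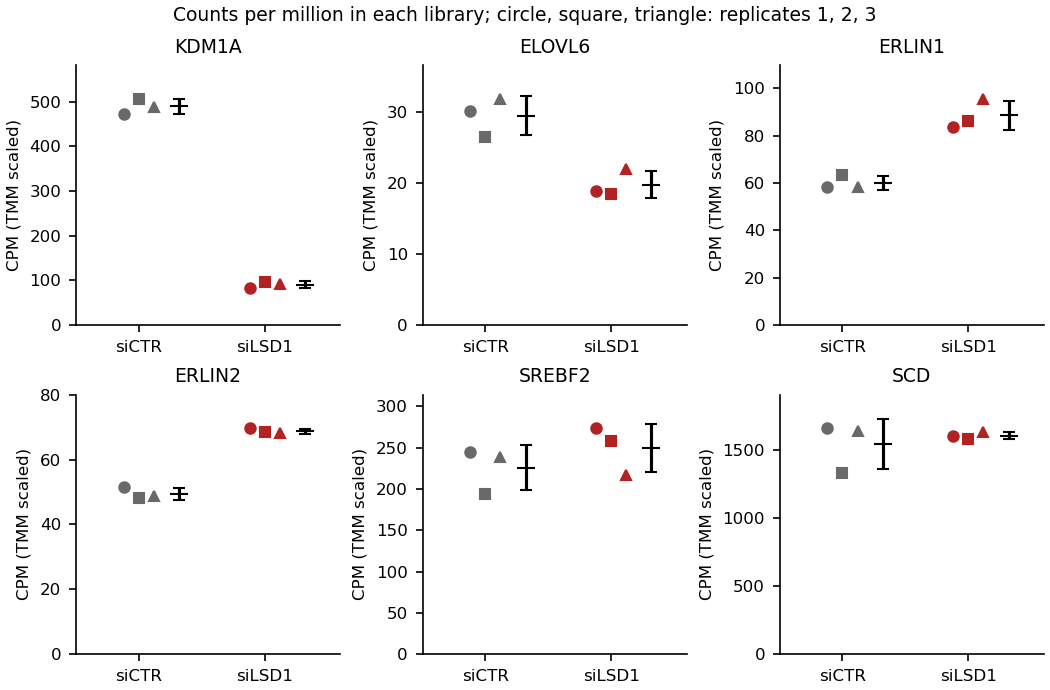
CPM in each library for KDM1A, ELOVL6, ERLIN1, ERLIN2, SREBF2 and SCD, with the mean and SD of each group (n = 3) as a black bar to the right of its points and each axis starting at 0. The siLSD1 points lie below the siCTR points for KDM1A and ELOVL6, above them for ERLIN1 and ERLIN2, and overlap with them for SREBF2 and SCD.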

How the data were processed

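RNA-seq libraries of U2OS cells (3 siCTR, 3 siLSD1, 48 h) were grouped by their labels. The authors aligned reads with STAR and deposited whole read counts per gene, FPKM values and a normalized signal equal to the count times a constant per library. The authors' deposited tables of library pairs hold a second set of counts, with a median ratio of 1.11 to the first. The build, annotation and counter are not given in the sources used here. Deposited fold changes and p-values were not used.

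Counts were tested in R 4.3.3 with edgeR 4.0.16 (TMM, low counts removed by filterByExpr at a minimum of 10, two-sided quasi-likelihood test, no covariates), with Benjamini-Hochberg adjustment over 11844 genes. The alternatives used DESeq2 1.42.0, limma 3.58.1, other scalings and filters, a replicate block, a GC content and length correction, the second counting, and each library left out. The fits were also run on simulated counts. These held no effects of GC content, length or replicate number, so they do not check the corrections for such effects. Levels between genes are FPKM, and CPM values are scaled with TMM. Gene coordinates, GC content and exon overlap are from GENCODE on GRCh38. No library was a copy of another, since chi-square values per degree of freedom between libraries ran from 6.45 to 39.3.

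The members and lists were chosen with earlier results of these data known. Named are KDM1A, all members, with values in every library for those with an unadjusted p under 0.05 and the 5 with the highest level, and the other pathway genes with an unadjusted p under 0.05. SREBF1, SREBF2, FDFT1, ACACA, ABCA1 and ABCG1 were given by library after their values were seen. Of the other pathway genes, 1 is not reported here and is left out of the counts of its list.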

Additional observations from a re-analysis of the deposited data

How the results depend on the processing

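KDM1A was lower under all 16 alternatives, with log2 fold changes from -2.47 to -2.38. ELOVL6 was lower at an unadjusted p under 0.05 under all 16, and its adjusted p was under 0.05 in 5. Accordingly the count of members with an adjusted p under 0.05 was 1 in place of 0 with DESeq2, without the filter, with the replicate block, with the GC content and length correction, and with that correction and the replicate block together. At an unadjusted p under 0.05, 2 members were lower without the filter, where ABCA1 was added, 2 with the replicate block, where SREBF1 was added, 2 with the GC content and length correction (SREBF1), and 3 with that correction and the replicate block (SREBF1 and IDI1). The higher members numbered 2 with the correction (SCAP and INSIG2) and 4 with the replicate block as well (PMVK and DHCR7 added). Over all genes, 1223 of 11844 were higher and 1323 lower with the replicate block, 1439 and 1365 of 11490 with the correction, 1638 and 1617 of 11490 with both, and 1018 and 926 of 15585 without the filter, so nothing is read from these counts about the list. The median log2 fold change of the members was -0.019 with both. With 1 library left out, 0 to 1 members were higher, 1 to 2 were lower, and the median lay between -0.044 and -0.0015. The stricter filter, which kept 33 members, turned the median to 0.0098. The cause of these differences was not tested.

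Whether the replicate numbers pair the libraries is not given in the sources used here. The deviations of same-numbered libraries correlated at 0.33, 0.07 and 0.31, and those of differently numbered libraries at -0.29 to 0.0072. Every library thus correlated best with its own number, and the deposited tables of library pairs also join same-numbered libraries. These are hints of a pairing, which the main fit, without a block, does not take into account. The replicate block raised the calls over all genes from 171 to 897 at an adjusted p under 0.05 with edgeR, the GC content and length correction gave 855, and both gave 1290. DESeq2 gave 323 calls and edgeR without the filter 290. With 1 library left out, edgeR gave 58 to 136 calls. Among the other genes of the pathway, the replicate block gave ERLIN2 an adjusted p of 0.0044 from edgeR, and the correction with the block gave 0.0299 for PGRMC1, 0.0484 for PDSS1 and 0.0318 for ACSL1, also from edgeR.

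The sign of a member's log2 fold change differed from the reported one in 40 of 543 pairs of member and alternative, over 19 members, all at an unadjusted p above 0.05 and none beyond 0.13 in size. With the second counting these were INSIG1 at 0.0032, MVK at -0.0028 and FDPS at -0.00070. With the GC content and length correction they were LPIN1 at -0.055, ACACA at -0.012, SCD at -0.0037 and FADS1 at -0.042, and with the replicate block as well LPIN1 at -0.055, SCD at -0.0010 and FADS1 at -0.042. With 1 library left out, the ranges were -0.087 to 0.057 for INSIG1, -0.087 to 0.055 for HMGCS1, -0.042 to 0.085 for MVK, -0.068 to 0.23 for PMVK, -0.063 to 0.068 for FDPS, -0.77 to 0.13 for FDFT1, -0.045 to 0.078 for SQLE, -0.12 to 0.24 for LSS, -0.0028 to 0.10 for CYP51A1, -0.13 to 0.053 for NSDHL, -0.054 to 0.078 for HSD17B7, -0.20 to 0.025 for EBP, -0.083 to 0.081 for LPIN1, -0.052 to 0.096 for ACLY, -0.10 to 0.45 for ACACA, -0.31 to 0.0020 for FASN, -0.036 to 0.11 for SCD, -0.053 to 0.12 for FADS1 and -0.31 to 0.0055 for MYLIP. Members that kept their sign moved as well with 1 library left out, from -0.33 to -0.11 for SREBF1, 0.048 to 0.24 for SREBF2, 0.049 to 0.24 for SCAP, 0.12 to 0.37 for INSIG2, -0.21 to -0.068 for ACAT2, -0.32 to -0.0099 for MVD, -0.34 to -0.075 for IDI1, -0.50 to -0.13 for TM7SF2, -0.21 to -0.079 for MSMO1, -0.27 to -0.0089 for SC5D, 0.035 to 0.22 for DHCR7, -0.22 to -0.066 for STARD4, 0.078 to 0.235 for FADS2, -0.96 to -0.25 for ABCG1 and -0.66 to -0.52 for ELOVL6. With the GC content and length correction, values that kept their sign and moved by over 1.5 times were -0.16 for SREBF1, -0.020 for INSIG1, 0.063 for MVK, 0.195 for PMVK, -0.015 for MVD, 0.089 for FDPS, -0.13 for TM7SF2, -0.097 for MSMO1, 0.11 for HSD17B7, -0.047 for EBP, 0.0032 for ACLY, -0.045 for FASN and -0.0105 for NSDHL. With the second counting such values were 0.027 for PMVK, 0.023 for CYP51A1, 0.0056 for HSD17B7, 0.028 for LPIN1, 0.17 for ACACA and -0.23 for MYLIP, and with limma-voom -0.25 for FDFT1. The 5 tested members with under 100 reads in a library have the fewest reads, and ABCA1 could be tested only without the filter. The stricter filter also dropped ABCG1.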
